A study of Mus musculus with 8 samples.

Results

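The genes described here are 44 measured genes of the distal end of mouse chromosome 12, from Ddx24 onward, out of 18194 genes measured in the series. The list names 45 genes that are not imprinted. The 45th, Traf3, an adaptor of tumour necrosis factor receptors, is named by no probe set in the annotation used and was not analysed here. The list was chosen because this stretch had been seen higher in PSC than in ESC on the same arrays, so the PSC and ESC values below describe the choice and are given without a test. Where a gene has several probe sets, the brightest on average over the 8 arrays stands for it.

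Expression was measured on 8 Affymetrix arrays of mouse total RNA. EB_PSC (2 arrays) are embryoid bodies, floating aggregates in which parthenogenetic stem cells differentiated over 15 days of culture. PSC (3 arrays) are the undifferentiated parthenogenetic stem cells of the C57BL/6 strain. They were isolated on day 6 from blastocysts of oocytes that had been activated with strontium chloride after superovulation, and so carry maternal genomes only, as the embryoid bodies made from them do. ESC (3 arrays) are cells of the embryonic stem cell line R1, grown with leukemia inhibitory factor on a feeder layer of mouse embryonic fibroblasts. PSC and ESC also differ in line and in culture as described, and strain is given here for PSC only, so genome origin, line, strain and culture cannot be told apart in any difference between them. The labels do not say whether the arrays within a group come from separate cultures, and p-values therefore cover only the spread between these samples, part or all of which may be technical.

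Distal chromosome 12 holds the imprinted Dlk1-Meg3 domain, in which Dlk1 is read from the paternal copy and the noncoding RNAs Meg3, Rian and Mirg from the maternal copy. The members described here lie on both sides of that domain and are genes for which both parental copies are taken to be read. They serve unrelated tasks of the cell. Among them are Dicer1, the enzyme that cuts microRNA precursors, Papola, the poly(A) polymerase that adds the tail to messenger RNA, and Yy1, a zinc finger factor that binds promoters and enhancers. Hsp90aa1 is an abundant chaperone, Akt1 a growth and survival kinase, Tcl1 a co-activator of Akt kinases in early embryonic cells, and Dync1h1 the heavy chain of the cytoplasmic dynein motor.

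The promoters of 4 members are shown. Zfyve21 has the largest PSC minus ESC difference, and Yy1 encodes a factor whose motif was searched in all members with a promoter entry. Atg2b and Papola were taken from the members whose first listed window holds that motif. The motif in their windows was therefore selected for. Atg2b and Papola also have large PSC minus ESC differences, but Ckb (1.66), which exceeds Papola (1.63), is not shown. Each promoter shown is a 300-base window around the annotated start, mostly upstream of it, in RefSeq's GRCm38.p6 assembly. It runs 5′ to 3′ along the gene's strand. Capitals mark the letters of the YY1 motif GCCATNTT and of the GC box GGGCGG, on either strand.
Zfyve21, chr12:111813920-111814219, plus strand: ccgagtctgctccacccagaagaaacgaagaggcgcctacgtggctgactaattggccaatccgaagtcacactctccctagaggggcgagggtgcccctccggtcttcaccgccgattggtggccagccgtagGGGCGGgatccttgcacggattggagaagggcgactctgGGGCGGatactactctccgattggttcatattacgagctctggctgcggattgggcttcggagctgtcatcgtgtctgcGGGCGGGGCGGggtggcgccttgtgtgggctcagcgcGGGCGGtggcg
Atg2b, chr12:105685192-105685491, minus strand: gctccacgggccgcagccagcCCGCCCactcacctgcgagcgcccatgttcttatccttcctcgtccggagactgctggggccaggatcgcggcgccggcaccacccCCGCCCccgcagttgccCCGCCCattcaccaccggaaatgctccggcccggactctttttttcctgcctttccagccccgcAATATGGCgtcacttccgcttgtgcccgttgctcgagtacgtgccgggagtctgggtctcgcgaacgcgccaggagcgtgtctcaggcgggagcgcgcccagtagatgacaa
Papola, chr12:105784447-105784746, plus strand: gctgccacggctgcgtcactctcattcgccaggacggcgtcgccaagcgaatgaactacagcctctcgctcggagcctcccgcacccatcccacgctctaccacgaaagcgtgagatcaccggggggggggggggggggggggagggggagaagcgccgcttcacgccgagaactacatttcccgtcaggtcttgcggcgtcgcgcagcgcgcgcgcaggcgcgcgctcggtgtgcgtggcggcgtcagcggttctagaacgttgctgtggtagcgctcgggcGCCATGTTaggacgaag
Yy1, chr12:108793047-108793346, plus strand: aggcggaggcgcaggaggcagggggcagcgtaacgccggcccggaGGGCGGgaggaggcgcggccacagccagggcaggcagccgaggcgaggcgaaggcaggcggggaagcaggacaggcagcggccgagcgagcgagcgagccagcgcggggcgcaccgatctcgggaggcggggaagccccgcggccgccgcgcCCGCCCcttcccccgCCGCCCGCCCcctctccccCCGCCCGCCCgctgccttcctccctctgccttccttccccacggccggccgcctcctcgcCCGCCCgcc
The Zfyve21 window holds 5 GC boxes and 6 CCAAT boxes (CCAAT, not capitalised) and no YY1 motif. The Atg2b window holds 1 YY1 motif and 3 GC boxes, and the Papola window holds 1 YY1 motif close to its 3′ end, past the annotated start. The Yy1 window holds 7 GC boxes and no copy of the YY1 letters. GC boxes overlap one another in the Yy1 and Zfyve21 windows, while the YY1 and GC box letters do not overlap in the 4 windows shown.

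The promoter tables matched 40 of the 44 measured members. They hold no entry for Wars, Brf1, Cinp and Hsp90aa1. The YY1 motif was found in 6 of the 40 (15%), namely Atg2b, Gskip, Papola, Eml1, Mark3 and Klc1, against 6.96% of 27025 genes with a promoter entry. Atg2b and Gskip are divergent neighbours whose windows share 210 bases, so the motif in them is the same site read from opposite strands. The GC box was found in 33 members (82.5%, against 38.2% of all genes), CCAAT in 21 (52.5%, against 41.1%) and the palindromic NRF1 motif in 0 of the 40 (against 1.07%). GC content and CpG dinucleotides were counted in the first listed window of each gene only. The median GC content was 66.8% for the members, against 52.7% over all genes, with a median of 29.5 CpG dinucleotides against 7. A gene counts for a motif if any of its listed windows holds it. The 40 members have 57 windows and the 27025 genes 32851, so members have more windows per gene. The 27025 genes were also not matched to the members for expression level, so the shares are not compared like for like. These are counts of letters, not of bound sites.

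The arrays of each group resembled one another more than those of other groups. Across genes, which are not independent replicates, Pearson's r was 0.990 between the EB_PSC arrays, 0.993 to 0.994 between PSC arrays and 0.982 to 0.992 between ESC arrays, against 0.948 to 0.969 between PSC and ESC arrays. The 10 pluripotency markers were all above the limit for dim probe sets (5.44) in each group, with a log2 summed level of 14.1 on both EB_PSC arrays, 15.4 to 15.6 on PSC arrays and 15.8 to 15.9 on ESC arrays. The 10 cardiomyocyte markers summed to 12.4 to 13.1 in EB_PSC, 8.68 to 8.73 in PSC and 8.44 to 8.76 in ESC, and the 6 measured erythroid markers to 13.4 to 14.0 in EB_PSC, 7.34 to 7.44 in PSC and 7.41 to 7.51 in ESC. The 10 fibroblast markers, which feeder cells also carry, summed to 13.8 to 14.2 in EB_PSC, 11.9 to 12.1 in PSC (7 of 10 above the dim limit) and 12.1 to 12.4 in ESC (9 of 10). Taken gene by gene, 9 of these 10 were lower in PSC than in ESC, with a median difference of -1.03, and 7 fell in the limma fit. The part of this mixture of cell types in the members' values was not tested, and in bulk RNA fewer cells of a type and less RNA per cell cannot be told apart.

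Compared with ESC, most members were higher in PSC. The difference was positive for 41 of the 44 and negative for 3, with a median of 0.75 log2 units, which is 1.68-fold, a range from -0.49 to 1.85 and middle quartiles from 0.45 to 1.09. All 3 PSC arrays lay above all 3 ESC arrays for 36 members, while 17.4% of all genes were higher in that way. The arrays of 7 members overlapped, and those of 1 member, Cdca7l, were lower in PSC (19.1% of all genes). The median over all genes was 0.01. Because the members were chosen from this comparison, these counts restate the choice. Over the 8 arrays, the median member stood 0.56 and 0.47 log2 units above its ESC mean in EB_PSC, 0.71, 0.79 and 0.84 above it in PSC, and at 0.13, -0.17 and 0.03 on the ESC arrays themselves. The array ESC 2 was the lowest of its group for 31 of 44 members and ESC 1 the highest for 31. Without ESC 2 the median PSC minus ESC difference was 0.61, and over all single arrays left out it ran from 0.61 to 0.86.

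**Figure D1:**
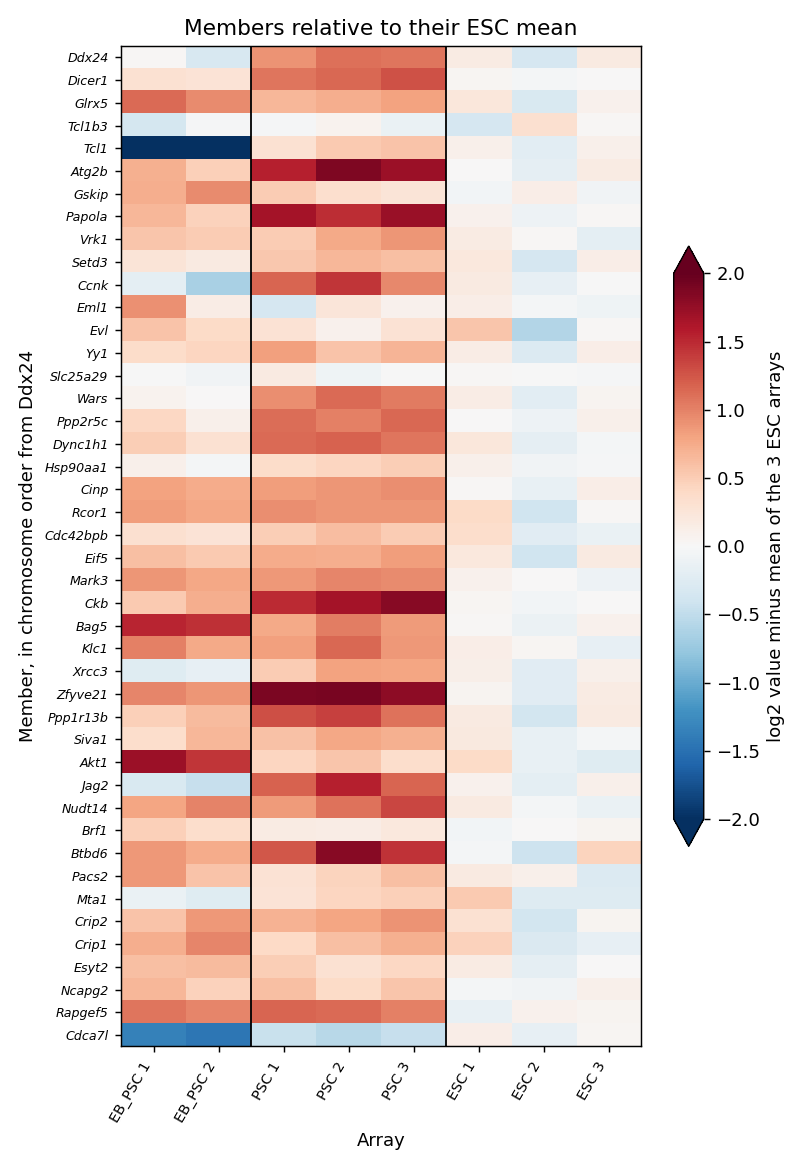
Each row is a member in chromosome order from Ddx24 at the top, and each column an array (EB_PSC, PSC, ESC). Colour gives the log2 value minus the mean of the 3 ESC arrays, cut at 2 on either side. Most PSC cells are red, EB_PSC cells are red for some members and pale or blue for others such as Tcl1 and Cdca7l, and ESC 2 is the lowest ESC column for 31 members.

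Along the chromosome the difference was not the same everywhere. The 16 members between Ddx24 and Dlk1 had a median PSC minus ESC difference of 0.71, the 24 between the imprinted domain and the immunoglobulin heavy chain locus 0.88, with all 24 positive, and the 4 beyond that locus 0.46. Of the 96 other non-imprinted genes of the stretch, 42 were above the dim limit. Their median was 0.53, with 37 positive, while the 54 dim genes had a median of 0.09. The first members, Ddx24 (1.02), Dicer1 (1.17) and Glrx5 (0.73), have as their neighbours outside the list Otub2 (0.90), Gm15523 (0.26), Asb2 (0.04), Fam181a (-0.07) and Prima1 (0.11). Beyond Cdca7l (-0.49), the last member, lie Dnah11 (-0.06) and Sp4 (0.06). The boundary at Ddx24 is not where the values first rise, although the median is higher beyond it. In groups of 47 neighbouring genes above the dim limit, the genes from Vipas39 to Otub2, just before Ddx24, had a median of 0.35 with 44 positive, and those from Numb to Noxred1 a median of 0.42 with 41 positive. The 5 groups nearer the centromere had medians from -0.05 to 0.16. On the 19 other chromosomes the median of genes above the dim limit lay between -0.10 and 0.04, against 0.69 for the 90 genes of chromosome 12 from Ddx24 onward.

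**Figure D2:**
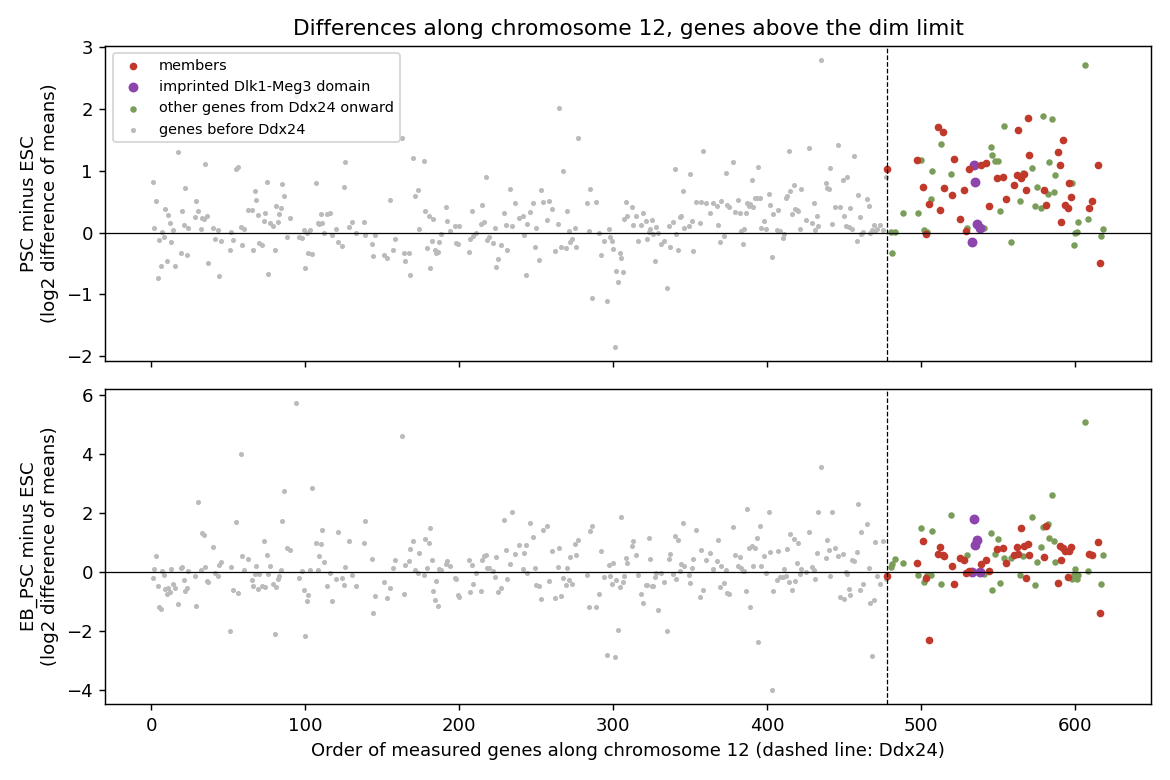
Log2 differences of group means for genes above the dim limit, in their order along chromosome 12, with PSC minus ESC above and EB_PSC minus ESC below. Each point is a gene and the dashed line marks Ddx24. In the upper panel members lie mostly above 0, with middle quartiles of 0.45 and 1.09, and the genes just before Ddx24 also lie mostly above 0.

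In embryoid bodies the members were nearer to PSC than to ESC for some genes and back at or below the ESC level for others. Against ESC, 27 of the 44 members rose in EB_PSC and 2 fell in the limma fit over all genes, where 19.3% of all genes rose and 25.6% fell. The members' median difference was 0.55, which is 1.46-fold, against -0.07 over all genes. Against PSC, 3 members rose and 18 fell, where 18.8% of all genes rose and 25.2% fell, with a median of -0.20 against -0.09 over all genes. Among genes above the dim limit, 23.4% rose and 36.4% fell against ESC, and 23.2% rose and 34.3% fell against PSC. These shares also stand beside the counts of members by role below, whose groups hold too few genes to compare with them. The stretch was chosen from the PSC and ESC arrays, which are shared between the comparisons. The EB_PSC arrays entered the choice of the probe set of each gene, and the list was drawn up with earlier results of all 8 arrays known, so neither count is independent of that choice.

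Both sets of calls can be read together per gene. Akt1, Gskip and Bag5 rose against both PSC and ESC. Papola, Ppp1r13b, Dync1h1, Atg2b, Zfyve21, Ckb and Btbd6 fell against PSC and rose against ESC. A further 17 members rose against ESC with no call against PSC, 9 fell against PSC with no call against ESC, and Tcl1 and Cdca7l fell against both. The remaining 6, Setd3, Tcl1b3, Cdc42bpb, Eml1, Evl and Slc25a29, passed neither test. By their means alone, 24 members (54.5%) stood between PSC and ESC in EB_PSC, 11 (25%) above both and 9 (20.5%) below both, while of the 11719 genes above the dim limit 15.6% stood between, 32.6% above both and 51.8% below both. The members were chosen for a gap between PSC and ESC, which leaves more room between the groups than for other genes, so these shares are a description and nothing is read from their difference. The median difference against ESC was 0.35 for the members before Dlk1, of which 6 of 16 rose, and 0.67 for those between the imprinted domain and the heavy chain locus, of which 18 of 24 rose. Whether these blocks differ was not tested. Where a call below is lost without an EB_PSC array, 1 array is left in that group. Such a loss can come with a difference that hardly moved or with one that shrank. Against ESC, Eif5 had 0.56 with all arrays and 0.53 without EB_PSC 1. Siva1 had 0.50 with all arrays and 0.35 without EB_PSC 2.

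**Figure D3:**
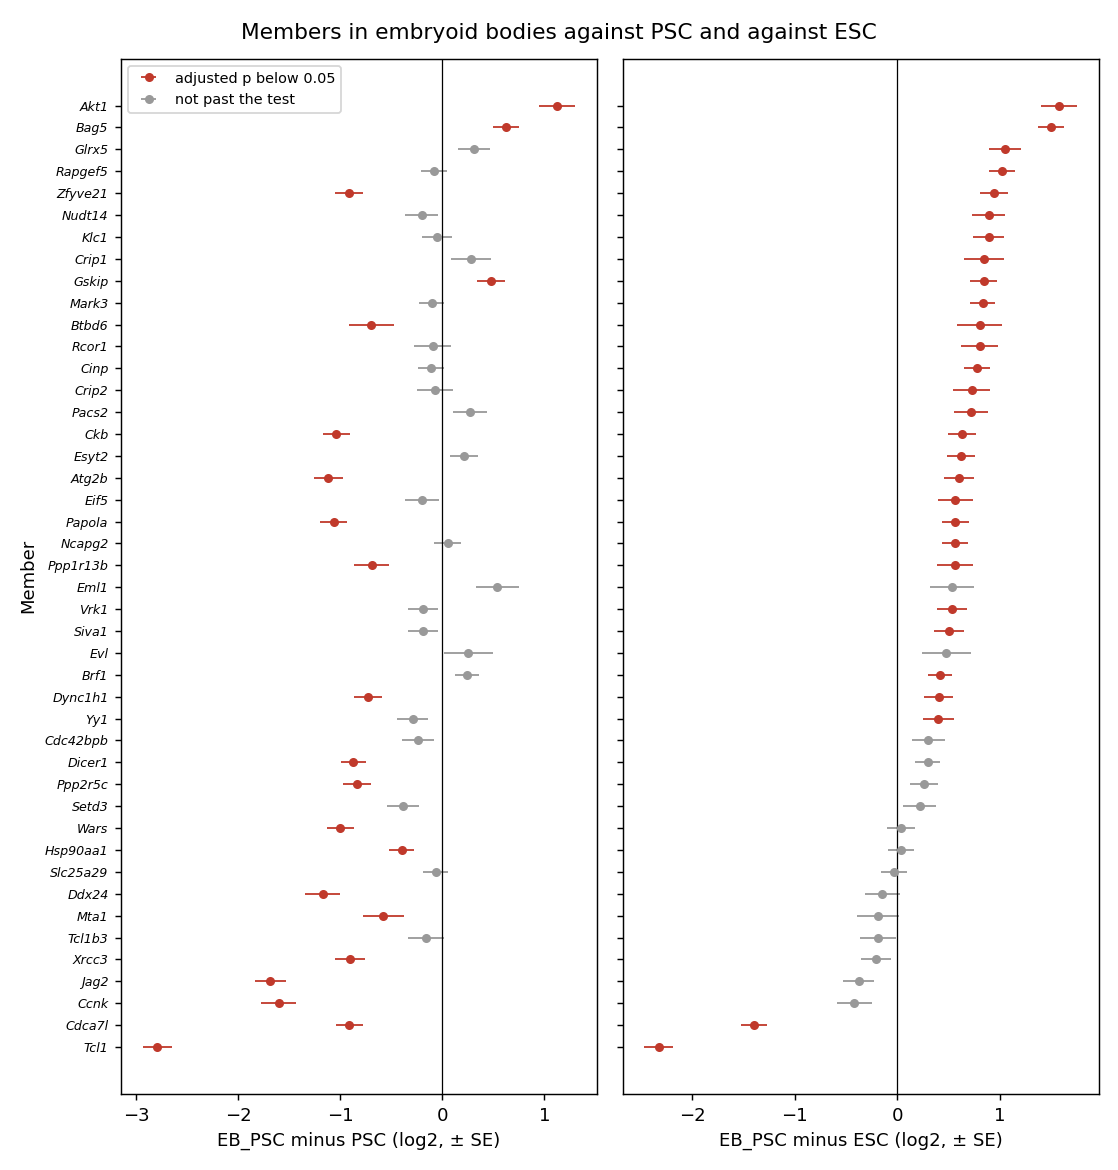
Log2 differences of EB_PSC minus PSC (left) and EB_PSC minus ESC (right) for the 44 members, with bars of 1 standard error from the limma fit, sorted by the right panel. Red points passed an adjusted p of 0.05. Akt1 and Bag5 are at the top of both panels and Tcl1 at the bottom of both.

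Of the 6 members that act on RNA and translation, 4 fell in EB_PSC against PSC and 3 rose against ESC, and their median PSC minus ESC difference was 1.03. Dicer1 had 8.90 and 8.86 in EB_PSC, 9.66, 9.74 and 9.85 in PSC, and 8.62, 8.54 and 8.59 in ESC. The 3 groups did not overlap. It was 2.24-fold higher in PSC than in ESC, and in EB_PSC it fell by 0.87 ± 0.12 (SE) against PSC (limma adjusted p = 4.83e-05). Against ESC it stood 0.30 ± 0.12 higher (adjusted p = 0.0622), which passed the test in 4 alternatives, among them the mean of both its probe sets (0.63, adjusted p = 0.000553, in a range of 0.000553 to 0.19 over the alternatives), which also made the fall against PSC smaller (0.47). Its second probe set averaged 8.20 in EB_PSC, 8.27 in PSC and 7.23 in ESC, so that there EB_PSC stayed at the PSC level. Papola had 10.77 and 10.57 in EB_PSC, 11.77, 11.58 and 11.83 in PSC, and 10.19, 10.00 and 10.12 in ESC. Again no array of one group reached into another. Papola was 3.08-fold higher in PSC than in ESC, fell by 1.06 ± 0.13 in EB_PSC against PSC (2.05e-05) and rose by 0.56 ± 0.13 against ESC (0.00322). The fall against PSC was lost when its probe sets were averaged (-0.17, adjusted p = 0.245, range 9.71e-06 to 0.245), which also lowered PSC minus ESC to 0.96. Ddx24, an RNA helicase, had 9.20 and 8.86 in EB_PSC, 10.07, 10.28 and 10.24 in PSC, and 9.33, 8.84 and 9.35 in ESC. EB_PSC and ESC overlapped, and PSC stood above both (-1.17 ± 0.17 for EB_PSC against PSC, 7.87e-05). Against ESC it differed by -0.15 ± 0.17 (0.543), which turned to a rise of 0.41 with the mean of its probe sets (0.0316, range 0.0316 to 0.954), and its fall against PSC was then 0.68. Its only other probe set is below the dim limit, with 4.86 in EB_PSC, 5.05 in PSC and 3.89 in ESC.

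The tryptophan tRNA synthetase gene Wars fell by 1.00 ± 0.14 in EB_PSC against PSC (limma adjusted p = 4.42e-05). Its PSC minus ESC difference depended on the probe set. It was 1.04 on the probe set chosen, an _x_at set, and -0.06 on the only one of its 4 that carries neither the _x_at, _s_at nor _a_at ending. On that probe set Wars also fell in EB_PSC against ESC (-1.06, 9.01e-05, range 9.01e-05 to 0.981), where the chosen one differed by 0.04 ± 0.14 (0.86). Eif5, a factor of translation initiation, rose by 0.56 ± 0.17 against ESC (0.0141), a call lost without EB_PSC 1 (0.0761, range 0.000184 to 0.0761) and a rise of 0.37 without ESC 2. Brf1, a subunit of the RNA polymerase III factor TFIIIB, had 7.09 and 6.95 in EB_PSC, 6.77, 6.76 and 6.82 in PSC, and 6.55, 6.62 and 6.66 in ESC. The groups did not overlap although the steps between them were small. It rose by 0.41 ± 0.12 against ESC (0.0109), also lost without EB_PSC 1 (0.0914, range 0.00103 to 0.0914).

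Among the 6 transcription and chromatin members, 3 fell in EB_PSC against PSC, and against ESC 2 rose and 1 fell. Yy1 had 11.54 and 11.58 in EB_PSC, 11.98, 11.72 and 11.84 in PSC, and 11.31, 10.88 and 11.29 in ESC. Every ESC array was below every other array. Yy1 was 1.61-fold higher in PSC than in ESC, was 0.29 ± 0.15 lower in EB_PSC than in PSC (limma adjusted p = 0.143) and rose by 0.40 ± 0.15 against ESC (0.0455). That last call is near the threshold. It was lost in 7 alternatives, among them without any single PSC or EB_PSC array and without ESC 2 (difference 0.26), with adjusted p from 0.0538 to 0.158 in a range of 0.00317 to 0.158. Ccnk, the cyclin partner of the kinases CDK12 and CDK13, had 7.49 and 7.05 in EB_PSC, 8.85, 9.12 and 8.65 in PSC, and 7.87, 7.53 and 7.68 in ESC. EB_PSC lay below every other array. It fell by 1.60 ± 0.17 against PSC (5.44e-06) and stood 0.42 ± 0.17 below ESC (0.0667), a difference that passed without EB_PSC 1 (-0.64, 0.022), without ESC 2 (-0.50, 0.0423) and with the replicate number as a block (-0.48, 0.0481), in a range of 0.022 to 0.494.

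Cdca7l, a Myc-interacting nuclear protein, ran against the other members. It had 7.73 and 7.63 in EB_PSC, 8.63, 8.53 and 8.61 in PSC, and 9.21, 8.91 and 9.11 in ESC. The groups did not overlap and ESC was highest. It fell by 0.91 ± 0.13 in EB_PSC against PSC (limma adjusted p = 6.23e-05) and by 1.40 ± 0.13 against ESC (1.06e-06). Rcor1, the CoREST scaffold of histone demethylase complexes, rose by 0.80 ± 0.18 against ESC (0.00225) and was 0.10 lower in EB_PSC than in PSC (0.71). With the mean of its probe sets that difference from PSC turned to a rise of 0.53 (0.00126, range 0.00126 to 0.848). Mta1, a subunit of the NuRD remodelling complex, fell by 0.58 ± 0.20 against PSC (0.0334). The fall was lost in 6 alternatives, with adjusted p from 0.0749 to 0.144 in a range of 0.00186 to 0.144, among them without PSC 2, PSC 3, EB_PSC 1 or EB_PSC 2. Its PSC minus ESC difference of 0.39 was 0.65 without ESC 1 and 0.26 without either ESC 2 or ESC 3. Setd3, the histidine methyltransferase of actin, passed neither test (-0.39 ± 0.16 against PSC, 0.0637, and 0.21 ± 0.16 against ESC, 0.309), but each test was passed under some alternatives, with ranges of 0.0148 to 0.27 and 2.09e-06 to 0.81. For the comparison with PSC these included leaving out ESC 1 or ESC 2. The sign against PSC depended on the probe set. On the other probe set of Setd3, above the dim limit, EB_PSC was 0.74 higher than PSC and 2.31 higher than ESC. With the mean of its probe sets the differences were 0.18 and 1.26, the latter giving the 2.09e-06.

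The 4 members of genome maintenance and mitosis had a median PSC minus ESC difference of 0.71, and 3 of them rose in EB_PSC against ESC. Cinp, which binds the kinase CDK2 and the replication machinery, rose by 0.77 ± 0.13 (limma adjusted p = 0.000178), Ncapg2, a subunit of condensin II, by 0.56 ± 0.13 (0.00284) and Vrk1, a histone kinase, by 0.53 ± 0.15 (0.00905). The call of Vrk1 was lost without EB_PSC 1 (0.0522, range 0.00039 to 0.0522). None of these 3 passed against PSC, where Ncapg2 differed by 0.05 ± 0.13 (0.785), although Cinp did with the mean of its probe sets (-0.31, 0.0334, range 0.0334 to 0.736). Xrcc3, a gene of DNA repair, did the opposite, with a fall of 0.90 ± 0.15 against PSC (0.000202) and -0.21 ± 0.15 against ESC (0.293). The other condensin genes, which lie on other chromosomes, give a frame for Ncapg2. Of 7 measured, 5 fell in EB_PSC against PSC (34.3% of genes above the dim limit did) and 5 against ESC (36.4%). Ncapd2 fell by 2.15 ± 0.17 against PSC (3.2e-07) and Ncaph2 by 1.37 ± 0.13 (1.69e-06).

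The 9 members of Akt, kinase and receptor signalling moved in different directions. Tcl1 had 7.15 and 7.28 in EB_PSC, 9.85, 10.06 and 10.11 in PSC, and 9.65, 9.34 and 9.64 in ESC. EB_PSC stood far below both kinds of stem cell, and the ESC arrays lay just below the PSC arrays (1.38-fold higher in PSC). It fell 6.92-fold in EB_PSC against PSC (-2.79 ± 0.14, limma adjusted p = 3.01e-09) and 5.01-fold against ESC (-2.32 ± 0.14, 1.81e-08). The 10 pluripotency markers, to which Tcl1 does not belong here, all fell in the same comparisons. Tcl1b3, a neighbouring gene of the same family, had 10.23 and 10.56 in EB_PSC, 10.56, 10.65 and 10.46 in PSC, and 10.24, 10.90 and 10.61 in ESC. All 3 groups overlapped, and neither test was passed (0.502 and 0.434). Its probe set is an _x_at set, which can read related genes, so its level is uncertain.

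Akt1 had 9.30 and 9.03 in EB_PSC, 8.03, 8.15 and 7.94 in PSC, and 7.98, 7.45 and 7.36 in ESC. PSC and ESC overlapped through ESC 1, and EB_PSC stood above both. It rose 2.18-fold in EB_PSC against PSC (1.12 ± 0.18, limma adjusted p = 0.000145) and 2.97-fold against ESC (1.57 ± 0.18, 6.54e-06). With the mean of its 4 probe sets, 2 of them dim, the rises were 0.52 and 0.69. Gskip, which anchors GSK3 to protein kinase A, had 8.70 and 8.92 in EB_PSC, 8.47, 8.31 and 8.22 in PSC, and 7.91, 8.09 and 7.90 in ESC. No groups overlapped. It rose by 0.47 ± 0.13 against PSC (0.0108), a call lost without EB_PSC 2 (0.36, 0.109, range 3.28e-08 to 0.109), and by 0.84 ± 0.13 against ESC (0.00015). Its chosen probe set is an _x_at set, and another probe set gave a rise of 1.95 against PSC and 2.95 against ESC. Of 8 measured Akt pathway partners, 2 rose and 2 fell in EB_PSC against PSC and 1 rose and 3 fell against ESC. Of genes above the dim limit, 23.2% rose and 34.3% fell against PSC, and 23.4% rose and 36.4% fell against ESC. Pik3r1 and Pik3ca, subunits of the lipid kinase upstream of Akt, rose by 1.33 ± 0.13 (2.94e-06) and 1.11 ± 0.12 (5.5e-06) against PSC, while the kinase gene Mtor fell by 0.52 ± 0.12 (0.00317).

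Jag2, a Notch ligand, had 6.44 and 6.28 in EB_PSC, 7.92, 8.30 and 7.91 in PSC, and 6.84, 6.54 and 6.85 in ESC. It was 2.47-fold higher in PSC than in ESC, and EB_PSC lay below both. The PSC minus ESC difference was 0.47 on its other probe set, also above the dim limit, and 1.30 on the chosen one. The fall against PSC was 1.68 ± 0.15 (limma adjusted p = 1.12e-06), and against ESC the difference was -0.38 ± 0.15 (0.0626), which passed without ESC 2 (-0.48, 0.0228), without PSC 2 (0.0439) or with the mean of its probe sets (0.0436), in a range of 0.0228 to 0.322. Rapgef5, an exchange factor for Rap proteins, had 9.38 and 9.29 in EB_PSC, 9.47, 9.45 and 9.32 in PSC, and 8.17, 8.40 and 8.37 in ESC. EB_PSC and PSC overlapped and both stood above ESC (1.02 ± 0.13 for EB_PSC against ESC, 1.73e-05). With the mean of its probe sets Rapgef5 fell by 0.26 against PSC (0.0482, range 0.0482 to 0.892) and rose by 0.52 against ESC. The polarity kinase gene Mark3 did likewise, with 9.80 and 9.70 in EB_PSC, 9.79, 9.90 and 9.87 in PSC, and 9.01, 8.93 and 8.82 in ESC (0.83 ± 0.12 against ESC, 7.38e-05). Ppp2r5c, a regulatory subunit of protein phosphatase 2A, fell by 0.83 ± 0.13 against PSC (0.000183), or by 0.29 with the mean of its probe sets (0.0263). Its other probe sets, all above the dim limit, did not share a direction. From brightest to dimmest, their EB_PSC minus PSC differences were 0.52, -0.72, -0.42, -0.60, 0.19 and -0.19. The brightest of these averaged 10.60 in EB_PSC, 10.08 in PSC and 8.89 in ESC. The values that follow are from the chosen probe set unless stated. Against ESC it stood at 0.26 ± 0.13 (0.146) and passed under 3 alternatives, in a range of 0.00132 to 0.687. Cdc42bpb, a kinase of the actin cytoskeleton, was 1.45-fold higher in PSC than in ESC and passed neither test in EB_PSC (0.258 against PSC and 0.15 against ESC). Against ESC it passed without ESC 1 (0.47, 0.0102) and with cyclic loess (0.52, 0.0109), in a range of 0.0102 to 0.371.

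Of the 4 measured chaperone and survival members, 2 fell and 1 rose in EB_PSC against PSC, and 3 rose against ESC. Hsp90aa1 had 14.03 and 13.88 in EB_PSC, 14.28, 14.35 and 14.42 in PSC, and 14.02, 13.84 and 13.90 in ESC. EB_PSC and ESC overlapped, and PSC was above both, at 1.35-fold the ESC level. These values lie near the top of the arrays' range, which ends at 14.9. Its fall of 0.40 ± 0.12 against PSC (limma adjusted p = 0.018) was lost without EB_PSC 2 (0.126), without PSC 3 (0.0573) and with cyclic loess (0.0537), in a range of 0.00413 to 0.126, and against ESC it differed by 0.03 ± 0.12 (0.865). Of 7 measured Hsp90 partners and relatives, 4 fell against PSC (34.3% of genes above the dim limit did) and 5 against ESC (36.4%). Among them were the mitochondrial paralog Trap1 (-1.59 ± 0.17 against PSC, 4.77e-06) and the co-chaperones Stip1 (-1.48 ± 0.18, 1.51e-05) and Fkbp4 (-1.41 ± 0.21, 7.79e-05). Bag5, a co-chaperone of Hsp70, had 9.12 and 9.07 in EB_PSC, 8.36, 8.62 and 8.45 in PSC, and 7.63, 7.49 and 7.68 in ESC. The 3 groups were separate, and Bag5 rose by 0.62 ± 0.13 against PSC (0.00136) and by 1.50 ± 0.13 against ESC (5.17e-07). Its second probe set was dimmer and was 0.33 lower in EB_PSC than in PSC, and with the mean of both the rise against PSC was lost (0.15, 0.396, range 0.000133 to 0.396).

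Ppp1r13b, which encodes the p53-binding protein ASPP1, had 7.63 and 7.78 in EB_PSC, 8.43, 8.52 and 8.24 in PSC, and 7.33, 6.78 and 7.32 in ESC. EB_PSC lay between the other groups without overlap. It fell by 0.69 ± 0.17 against PSC (limma adjusted p = 0.00462) and rose by 0.56 ± 0.17 against ESC (0.0157), a rise lost without EB_PSC 2 (0.107, range 0.00139 to 0.107). Siva1, a pro-apoptotic protein, rose by 0.50 ± 0.15 against ESC (0.0119), also lost without EB_PSC 2 (0.144, range 0.000817 to 0.144).

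Among the 4 cytoskeleton and motor members, Dync1h1 had 9.98 and 9.79 in EB_PSC, 10.61, 10.67 and 10.56 in PSC, and 9.71, 9.30 and 9.45 in ESC. The groups were separate, with EB_PSC between PSC and ESC. Dync1h1 was 2.18-fold higher in PSC than in ESC, fell by 0.73 ± 0.14 in EB_PSC against PSC (limma adjusted p = 0.00082) and rose by 0.40 ± 0.14 against ESC (0.0333). The rise was lost without EB_PSC 1 (0.212), ESC 2 (0.0953) or ESC 3 (0.0864), with EB_PSC and ESC fitted alone (0.0688) and with the replicate number as a block (0.0632), in a range of 0.00106 to 0.212. Klc1, a kinesin light chain, had 8.25 and 8.00 in EB_PSC, 8.05, 8.38 and 8.10 in PSC, and 7.37, 7.27 and 7.07 in ESC. EB_PSC and PSC overlapped above ESC, and the rise against ESC was 0.89 ± 0.15 (0.000214). On its other probe sets, which are above the dim limit, EB_PSC was 0.82 and 0.28 higher than PSC. It was 1.52 and 1.06 higher than ESC there. Of 9 measured dynein and kinesin partners, 3 rose and 4 fell in EB_PSC in each of the comparisons with PSC and with ESC. The shares of genes above the dim limit were 23.2% and 34.3% against PSC, and 23.4% and 36.4% against ESC.

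Evl, which regulates actin filament growth, had 8.14 and 7.95 in EB_PSC, 7.85, 7.66 and 7.86 in PSC, and 8.13, 6.98 and 7.59 in ESC. The ESC arrays spanned nearly all the others. Evl passed neither test (0.43 against PSC and 0.13 against ESC). Against ESC it passed in 4 alternatives, among them without ESC 1 (0.76, limma adjusted p = 0.00515, in a range of 0.00515 to 0.44), and differed by 0.18 without ESC 2. Eml1, a microtubule-associated protein, had 4.94 and 4.17 in EB_PSC, 3.69, 4.26 and 4.11 in PSC, and 4.15, 3.98 and 3.95 in ESC. All of these are below the dim limit, so no fold is given. It passed neither test with all arrays (0.0547 against PSC and 0.0561 against ESC), and both were passed without EB_PSC 2 (0.00386 and 0.0036, in ranges of 0.00386 to 0.634 and 0.0036 to 0.653). Without EB_PSC 1 both differences were 0.15, and leaving out PSC 2 or PSC 1 also let 1 test pass (0.0419 against PSC and 0.0463 against ESC).

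The 4 members of membranes and autophagy all rose in EB_PSC against ESC, and 2 of them fell against PSC. Zfyve21, an endosomal and focal adhesion protein with a FYVE domain, had 9.76 and 9.67 in EB_PSC, 10.66, 10.67 and 10.56 in PSC, and 8.83, 8.55 and 8.95 in ESC. It had the largest PSC to ESC ratio of the members (3.61-fold), and EB_PSC lay midway without overlap. It fell by 0.92 ± 0.14 against PSC (limma adjusted p = 9.67e-05) and rose by 0.94 ± 0.14 against ESC (7.13e-05). Its other probe set gave a PSC minus ESC difference of 1.32. Atg2b, a lipid transfer protein of autophagosome growth, had 7.56 and 7.32 in EB_PSC, 8.40, 8.70 and 8.56 in PSC, and 6.85, 6.67 and 7.01 in ESC. The order of the groups was the same, with PSC 3.28-fold above ESC. It fell by 1.12 ± 0.15 against PSC (3.05e-05) and rose by 0.60 ± 0.15 against ESC (0.00401), the rise being lost without EB_PSC 1 (0.0539, range 0.000232 to 0.0539). With the mean of its probe sets, 2 of 3 of which are dim, PSC minus ESC was 0.89 and the fall was 0.51. Pacs2, a sorting protein, and Esyt2, a tether between the endoplasmic reticulum and the plasma membrane, rose against ESC by 0.72 ± 0.16 (0.00252) and 0.62 ± 0.13 (0.00177), and neither passed against PSC (0.211 and 0.23).

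**Figure D4:**
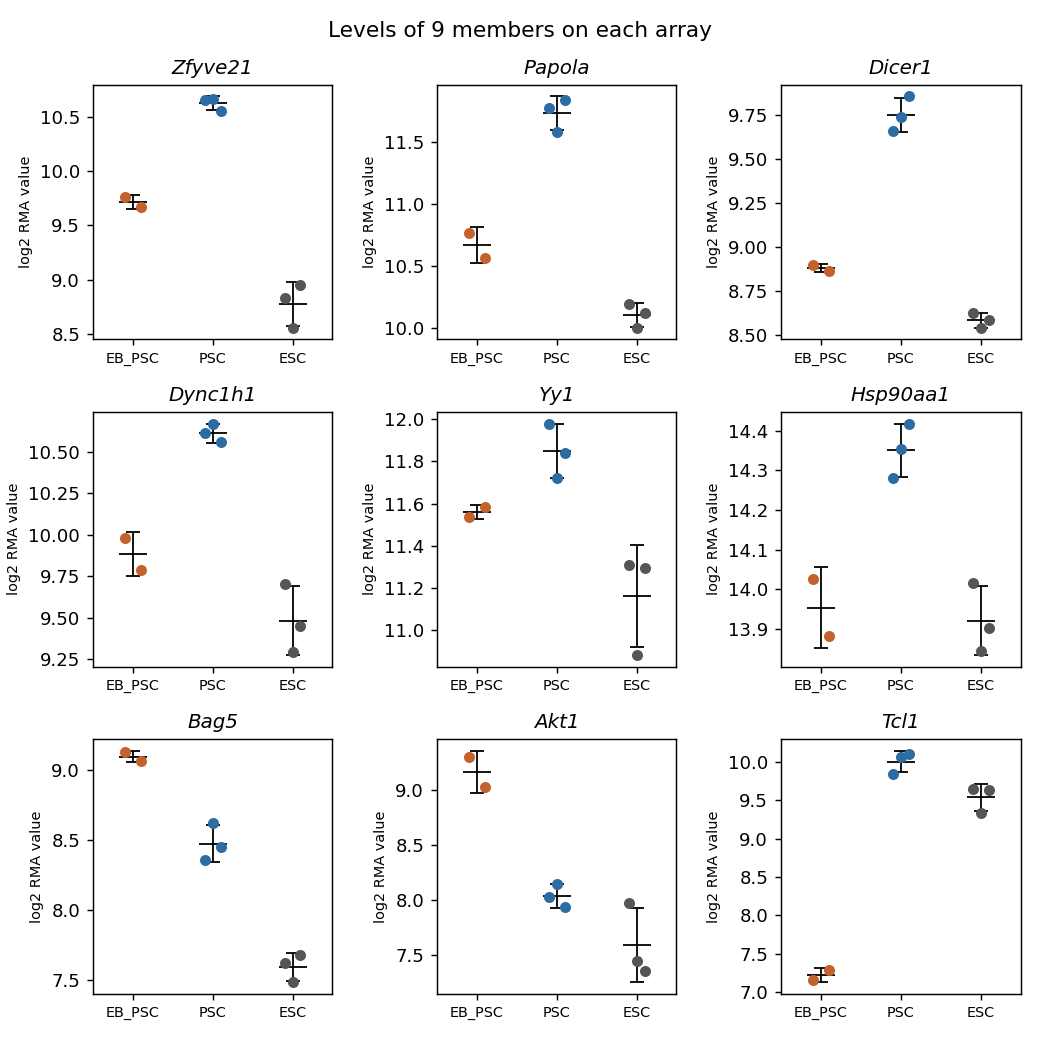
Log2 RMA values of 9 members on each array, with EB_PSC, PSC and ESC from left to right. Points are arrays, the long dash is the group mean and bars are 1 SD, and each panel has its own axis, which does not start at 0. Zfyve21, Papola, Dicer1 and Dync1h1 have EB_PSC between PSC and ESC, Hsp90aa1 has EB_PSC at the ESC level, Bag5 and Akt1 are highest in EB_PSC, and Tcl1 is lowest there.

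Of the 4 members of mitochondria and metabolism, 3 rose in EB_PSC against ESC and 1 fell against PSC. Ckb, brain-type creatine kinase, had 9.61 and 9.83 in EB_PSC, 10.59, 10.76 and 10.92 in PSC, and 9.13, 9.04 and 9.10 in ESC. The groups did not overlap, and PSC was 3.17-fold above ESC. It fell by 1.04 ± 0.14 against PSC (limma adjusted p = 2.88e-05) and rose by 0.63 ± 0.14 against ESC (0.00166). Glrx5, a mitochondrial glutaredoxin of iron-sulfur cluster assembly that is needed in haem synthesis, had 10.92 and 10.73 in EB_PSC, 10.44, 10.50 and 10.59 in PSC, and 10.01, 9.47 and 9.86 in ESC. EB_PSC was highest. It rose 2.06-fold against ESC (1.04 ± 0.16, 8.9e-05) and stood 0.31 ± 0.16 above PSC (0.13), which passed with cyclic loess (0.47, 0.0175, in a range of 0.0175 to 0.455). Nudt14, a nucleotide sugar hydrolase, rose by 0.89 ± 0.16 against ESC (0.000401). Slc25a29, a mitochondrial carrier of basic amino acids, had 6.41 and 6.35 in EB_PSC, 6.60, 6.33 and 6.41 in PSC, and 6.43, 6.42 and 6.40 in ESC. All groups overlapped, and the tests gave 0.709 and 0.856.

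The 3 adaptor and LIM domain members all rose against ESC. Btbd6, an adaptor of a cullin ubiquitin ligase, had 7.15 and 7.03 in EB_PSC, 7.53, 8.10 and 7.73 in PSC, and 6.25, 5.88 and 6.74 in ESC. The groups were separate but the stem cell arrays were spread widely. Its rise of 0.80 ± 0.22 against ESC (limma adjusted p = 0.00812) was lost without EB_PSC 1 (0.0567, range 0.00115 to 0.0567). Its fall of 0.70 ± 0.22 against PSC (0.0194) was lost without PSC 2 (0.0881), EB_PSC 1 (0.0535) or EB_PSC 2 (0.103) and with cyclic loess (0.0537), in a range of 0.00626 to 0.103. Crip1 and Crip2, small LIM proteins, rose by 0.85 ± 0.20 (0.00274) and 0.72 ± 0.18 (0.00434), and the call of Crip2 was lost without EB_PSC 2 (0.0587, range 0.00034 to 0.0587).

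Probe sets that were not chosen give a second reading of 28 members, from the same arrays. Of 61 such probe sets, 49 in 23 members were above the dim limit. Of these 49, 46 were higher in PSC than in ESC, with a median of 0.70, and 38 were higher in EB_PSC than in ESC, with a median of 0.38. The exceptions for PSC against ESC were 1 probe set each of Wars, Evl and Slc25a29. The median difference of these 49 between EB_PSC and PSC was -0.03. When all probe sets of a gene were averaged, dim ones included, the PSC minus ESC difference shrank by more than 1.5 times for Papola, Mta1, Akt1, Bag5, Atg2b and Esyt2 and grew by more than 1.5 times for Setd3, Gskip, Pacs2 and Slc25a29, the last from a value near 0 (0.09 when averaged, 0.03 as chosen).

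Of the imprinted genes inside the stretch, Meg3 averaged 12.73 in EB_PSC, 12.02 in PSC and 10.92 in ESC, and Rian averaged 9.65 in EB_PSC, 9.56 in PSC and 8.74 in ESC. Meg3 rose in EB_PSC against PSC (0.72 ± 0.21, limma adjusted p = 0.0146) and against ESC (1.81 ± 0.21, 1.04e-05), and Rian rose against ESC (0.91 ± 0.16, 0.000376). Mirg averaged 9.08 in EB_PSC, 8.15 in PSC and 8.01 in ESC and rose against both (0.93 ± 0.18, 0.000883, and 1.07 ± 0.18, 0.000248). Dlk1 differed by 0.16 ± 0.17 from PSC (0.489) and by 0.01 ± 0.17 from ESC (0.978). The 10 measured microRNA pathway genes other than Dicer1, which lie on other chromosomes, had a median PSC minus ESC difference of -0.01, and 1 of them, the exporter Xpo5, passed (0.38 ± 0.12, 0.0406), where 20.8% of all genes did. In EB_PSC against PSC 2 of these 10 rose and 3 fell, where 23.2% and 34.3% of genes above the dim limit did. Prkra, a partner of Dicer1 in its complex, rose by 1.13 ± 0.13 (7.18e-06) and Xpo5 fell by 1.41 ± 0.14 (1.9e-06).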

How the data were processed

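Per the labels and the submitters' processing notes, the authors made the deposited log2 values with RMA in Bioconductor; the version and the joint or separate normalization of the arrays are not stated in the sources used here. The deposited values run from 2.56 to 14.9, with array medians from 5.39 to 5.47. RMA equalises the arrays' distributions, so a shift of most transcripts would not be visible, and low values have compressed differences.

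Of 45101 probe sets, 34958 carry 1 symbol, 932 several and 9211 none in the platform annotation, and 18030 of 18194 genes matched RefSeq (GRCm38.p6), used for order and promoters. A probe set or gene with a mean below 5.44 is called dim. Differences between groups were fitted in limma 3.58.1 under R 4.3.3 (1 fit of 8 arrays, group only, 5 residual and 8.07 prior degrees of freedom), two-sided, adjusted by Benjamini-Hochberg over 18194 genes, with a threshold of 0.05. The number of arrays limits the precision. On simulated data (18194 genes) the test of EB_PSC against PSC recovered 28%, 84% and 100% of changes of 0.5, 1 and 2 log2 units. The test of EB_PSC against ESC recovered 26%, 84% and 98%. The simulation changed far fewer genes than were called in the data. The adjustment over all genes depends on that number, so these shares need not hold for the data. Python 3.11.15, pandas 2.3.3, NumPy 2.4.6 and Matplotlib 3.10.9 were used.

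The members, their roles, the partner lists and the tests were chosen with earlier results of these data known. All members may be named. Values on every array are given for the 6 largest and 6 smallest PSC minus ESC differences, the 5 largest called rises and falls in each EB_PSC comparison, Tcl1, Dicer1, Yy1, Hsp90aa1, Akt1 and Dync1h1, and further for Ppp1r13b, Mark3 and Klc1, which were added after their values were seen. Alternatives were quantile normalization again, cyclic loess, dim probe sets filtered out, all probe sets of a gene averaged, removal of _x_at and _s_at sets, the compared groups alone, the replicate number as a block, and each array left out. Same-numbered arrays did not deviate together throughout (r across genes from -0.277 to 0.232), so the numbers were not taken to pair samples.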

Additional observations from a re-analysis of the deposited data

How the results depend on the processing

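Over the alternatives, 115 of 120 values of the members' medians and counts moved by no more than the spread between arrays or, for counts, 1.5 times. None of them reversed direction. Part of the 115 could not move. A median difference stays the same when the compared groups are fitted alone or an array outside them is left out. The count of 115 therefore overstates the agreement. With cyclic loess, the median of EB_PSC minus PSC was -0.049, with 6 members called higher (Brf1, Esyt2 and Glrx5 besides Akt1, Bag5 and Gskip), and that of EB_PSC minus ESC was 0.79, while the median over all genes was -0.01 in both; the cause was not tested. Leaving out single arrays, the median of EB_PSC minus PSC ran from -0.31 (without EB_PSC 2) to -0.20, members called higher from 3 to 4 and lower from 15 to 19. For EB_PSC minus ESC the median ran from 0.47 to 0.60, members called higher from 20 (without EB_PSC 1, which leaves a lone array assumed to vary like the other groups) to 29, and lower from 2 to 4, with 4 without ESC 2. The median of PSC minus ESC ran from 0.61 to 0.86, and 41 to 42 members were higher.

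With the replicate number as a block, 3 members rose and 18 fell against PSC, the same 21 genes, and 26 rose and 3 fell against ESC. Deviations of same-numbered arrays correlated at -0.277, -0.134 and -0.102 between PSC and ESC and at -0.136 and 0.0426 between EB_PSC and PSC. Between EB_PSC and ESC both pairs were positive (0.153 and 0.232), but 2 pairs are too few to take the numbers as a pairing. The deviations of the 2 EB_PSC arrays from their mean also mirror each other, so their values are not independent. Differently numbered arrays reached 0.209 (PSC 1 with ESC 2). These values do not decide whether the numbers pair samples. Dim probe sets limit what can be said of Eml1.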

Other observations

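Among genes of the stretch that are not members, Zfp386, a zinc finger gene named here after its values were seen, had the largest difference. It averaged 10.17 in EB_PSC, 7.78 in PSC and 5.06 in ESC, where it was below the dim limit, so that both differences from ESC are lower bounds (5.10 ± 0.13 for EB_PSC against ESC, limma adjusted p = 9.02e-12, and 2.72 for PSC against ESC). It also rose in EB_PSC against PSC (2.38 ± 0.13, 8.12e-09). The 42 other genes of the stretch above the dim limit had a median of 0.35 in EB_PSC against ESC, where 20 rose and 5 fell. Of all genes above the dim limit, 23.4% rose and 36.4% fell there. Against PSC the median of the 42 was -0.09, and 11 rose and 12 fell, near the 23.2% and 34.3% of all genes above the dim limit.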
